A study of Bos taurus and Felis catus with 14 samples.

Results

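The mir-378 family was taken from the deposited sets as every predicted precursor whose name holds mir-378, with or without a copy number or the mark for a further member, leaving out names that begin with the mark for antisense. This gave 8 of 1305 precursors, 2 of 810 in the cow and 6 of 495 in the cat. No locus in either set was named as antisense to mir-378. The bovine set was made from 10 libraries, each of a different tissue, from 3 Angus steers. Of the libraries, 8 (retina, iris, optic nerve, penis, dental pulp, oral papillae, submandibular lymph node and bone marrow) were made from a single steer, the brain stem library from another and that of the corium of the feet from the last. The feline set was made from 4 libraries, 2 of haired skin and 2 of skeletal muscle, from 3 neutered male domestic short hair cats, 1 of which gave both tissues. The cats were aged 10 years or more. No treatment is named for any animal, and no skeletal muscle entered the bovine set. Calls were made by miRWoods, a random forest predictor, on the joined libraries of each species. There is thus 1 list per species, with no replicate, and it holds positions, strands and names but no read numbers. The depth behind a locus, and the animal or tissue that gave its reads, are therefore not recorded there. The paper reports counts of the mature products separately, and these were not used here.

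In mammals, a primary transcript that carries a microRNA folds into a hairpin, Drosha releases the precursor, and Dicer removes the loop to leave a product from the 5p arm and a product from the 3p arm. One of these usually guides the silencing complex to messenger RNAs through its seed near the 5′ end. The best known mir-378 gene lies in an intron of PPARGC1B, which encodes a transcriptional coactivator of mitochondrial metabolism, and its product is abundant in striated muscle and brown fat. Several further copies with a near-identical mature product lie elsewhere in mammalian genomes. The sequences of the loci were not analysed here, so what follows rests on their names, positions and the layout of their products.

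The cow had 1 mir-378 locus with an annotated name, bta-mir-378-1, and 1 named as a further member of the family. The cat had 1 with a plain name, fca-mir-378, and 5 further members. The name of a further member was given by the authors from the homology of a mature product to known microRNAs. The paper's general rule includes a shared seed, but for the mir-2284 family it also counted precursors without one. These counts are those the family was chosen by, so they are given as a description. Among the 186 families with a locus in both sets, 153 had the same number of loci in cow and cat, 19 had more in the cow and 14 had more in the cat (7.53%). Over all 325 families of either set, 36 had more in the cat (11.1%) and 136 had more in the cow. Of the 36, mir-378 had 4 more loci and each of the other 35 had 1 more. On the other side, mir-376 had 4 more loci in the cow than in the cat (5 and 1). The mir-2285, mir-2284 and mir-6526 families, with 60, 33 and 5 bovine loci, had none in the cat. Of the families with 1 more locus in the cat, those with the lowest family numbers were mir-15, mir-16, mir-19 and mir-30, with 2 and 3, 2 and 3, 3 and 4, and 6 and 7 loci in cow and cat. Among the 208 feline families, mir-378 shared the third place by number of loci with mir-181, after let-7 with 11 and mir-30 with 7. In the cow it shared place 26 of 303. With plain names alone the difference between the species was 0, since each set had a single such locus. The tissues sampled also differ between the species, and their part in the counts cannot be told apart from that of the species.

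**Figure D1:**
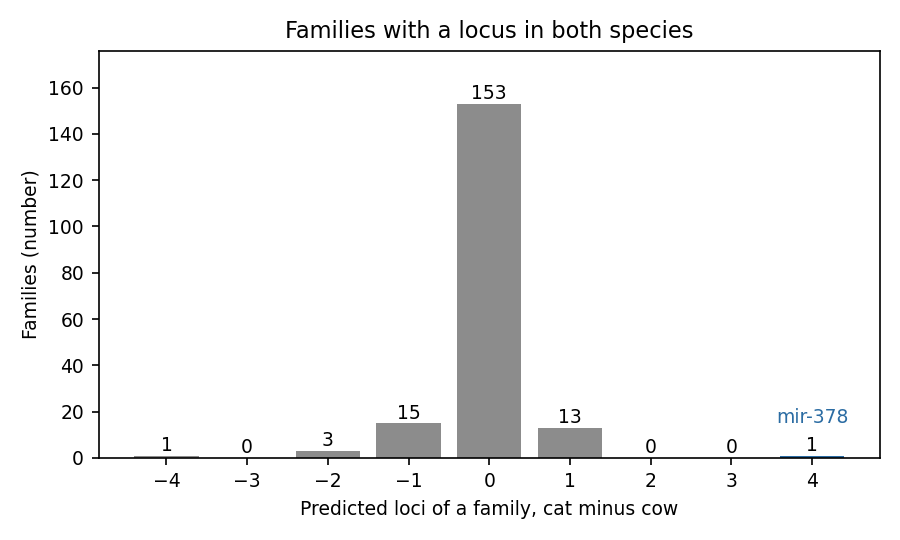
Families with at least 1 locus in both sets, by the number of predicted loci in the cat minus that in the cow (horizontal axis), with the number of families on the vertical axis and above each bar. The 153 families with equal numbers form the tall bar at 0, 13 families had 1 more locus in the cat, mir-378 is at 4 and mir-376 at -4.

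The locus best known from other mammals had the same layout in both species. In the cow, bta-mir-378-1 lies on chromosome 7 from 63067305 to 63067365 on the plus strand. In the cat, fca-mir-378 is on the minus strand of sequence NC_018723.2, at 197573640 to 197573700. Both precursors were 61 nt long, with a 22 nt 5p product at bases 1 to 22, a loop of 16 nt, and a 22 nt 3p product at bases 39 to 60 that left 1 base at the 3′ end. Positions within a precursor are counted from its 5′ end, and the loop is the stretch between the products. A loop of 16 nt was the median of both sets. Of 164 plain names that the sets share, 45 (27.4%) had the same length, arms and product positions in cow and cat, and 60 (36.6%) had the same precursor length.

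The surroundings of this locus were also alike. The nearest locus was mir-145 in both species, at a gap of 256493 nt in the cow and 256459 nt in the cat, a difference of 34 nt. The next was mir-143, at 257925 nt and 257897 nt, a difference of 28 nt. Both are microRNAs of vascular smooth muscle. On the strand of mir-378 they lay upstream in both species, in the order mir-143, mir-145, mir-378, all on the same strand. The feline mir-145 locus was itself a further member by name. In RefSeq's gene list for the cow, which uses other coordinates than the set (ARS-UCD2.0), MIR378-1 lies inside PPARGC1B, with MIR145 and MIR143 as its nearest microRNA genes on one side.

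The other bovine locus had a layout of its own. The further bovine member is on the minus strand of chromosome 1, at 137108512 to 137108560, and its precursor was 49 nt long. Of the 810 bovine precursors, 7 (0.864%) were no longer than that. Its 5p product took bases 3 to 22 (20 nt) and its 3p product bases 28 to 44 (17 nt), with 5 bases left at the 3′ end. The loop between them was 5 nt, and 3 of the 587 bovine loci with both arms had a loop of at most that length. Products of 17 nt made up 4 of the 1397 bovine products, and 17 nt was the shortest read length that the authors kept. The nearest predicted locus was bta-Novel104, at 827024 nt, and the nearest with a family number was bta-mir-2285-Novel10, at 8709971 nt. The RefSeq table has no mir-378 gene on chromosome 1.

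**Figure D2:**
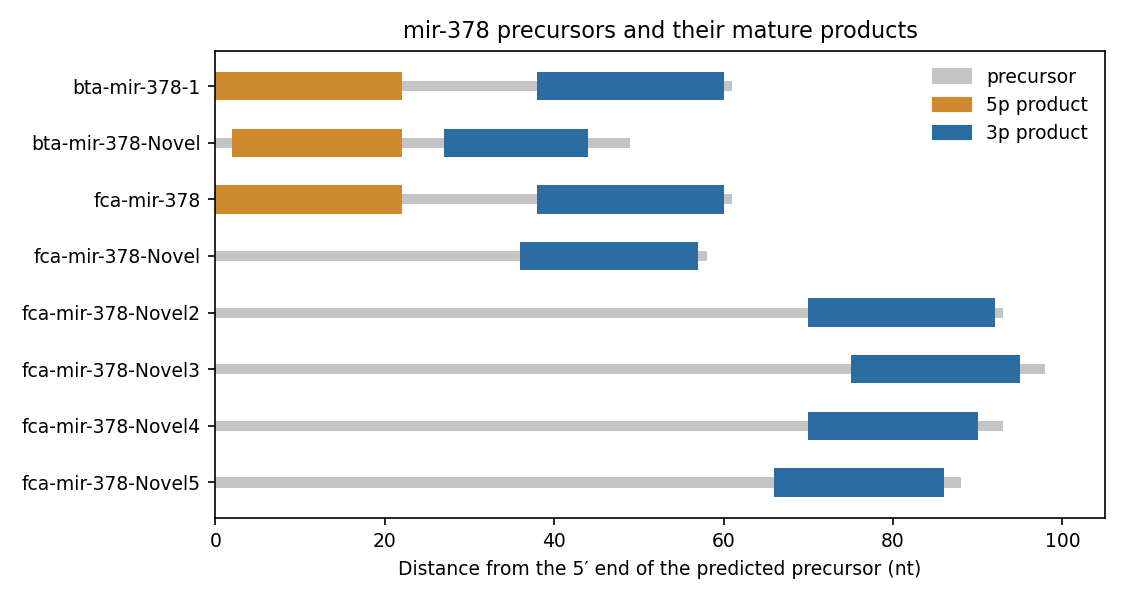
The 8 mir-378 precursors drawn to scale from their 5′ ends (horizontal axis, nt), with grey bars for the precursor and coloured boxes for the 5p and 3p products. bta-mir-378-1 and fca-mir-378 have the same layout, the further bovine member is the shortest, and the 5 further feline members have a box on the 3p arm alone.

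The 5 further feline members all gave a product from the 3p arm and none from the 5p arm. The member whose name carries the mark with no number is on the minus strand of chromosome C1, at 29136962 to 29137019. Its 58 nt precursor gave a 21 nt product at bases 37 to 57. This layout is close to that of fca-mir-378, whose 3p product starts at base 39. Also on C1, fca-mir-378-Novel2 lies from 17521537 to 17521629 on the plus strand, 11615332 nt from the unnumbered member. Its precursor of 93 nt gave a 22 nt product at bases 71 to 92.

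The remaining loci resembled fca-mir-378-Novel2 in length. On chromosome B2, fca-mir-378-Novel3 lies from 41627003 to 41627100 on the minus strand, with a precursor of 98 nt and a 20 nt product at bases 76 to 95. On chromosome A3, fca-mir-378-Novel4 lies from 119492870 to 119492962 on the plus strand. It was 93 nt long, with a 20 nt product at bases 71 to 90. On chromosome E1, fca-mir-378-Novel5 lies from 28789493 to 28789580 on the plus strand, with a precursor of 88 nt and a 20 nt product at bases 67 to 86.

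The feline precursors thus fell into a short pair, of 58 and 61 nt, and 4 long ones of 88 to 98 nt (mean 93.0 nt, SD 4.08, n = 4 loci). In the long ones, 66 to 75 bases preceded the 3p product, against 36 and 38 in the short ones. Taking a missing 5p product to be as long as the 3p product and to begin at the 5′ end would leave 46 to 55 nt between the arms in the long precursors and 15 nt in the unnumbered one. Of the 325 feline loci with both arms, 5 (1.54%, 95% exact interval 0.501 to 3.55%) had a measured loop of at least 40 nt. Of the 108 with the 3p arm alone, treated as the long mir-378 precursors were, 15 (13.9%) had at least 40 nt between the arms, the 4 mir-378 loci included. At the 3′ end the feline members were more alike, with 3p products of 20 to 22 nt that left 1 to 3 bases. Over all 433 feline 3p products, 87.1% left 1 to 3 bases.

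**Figure D3:**
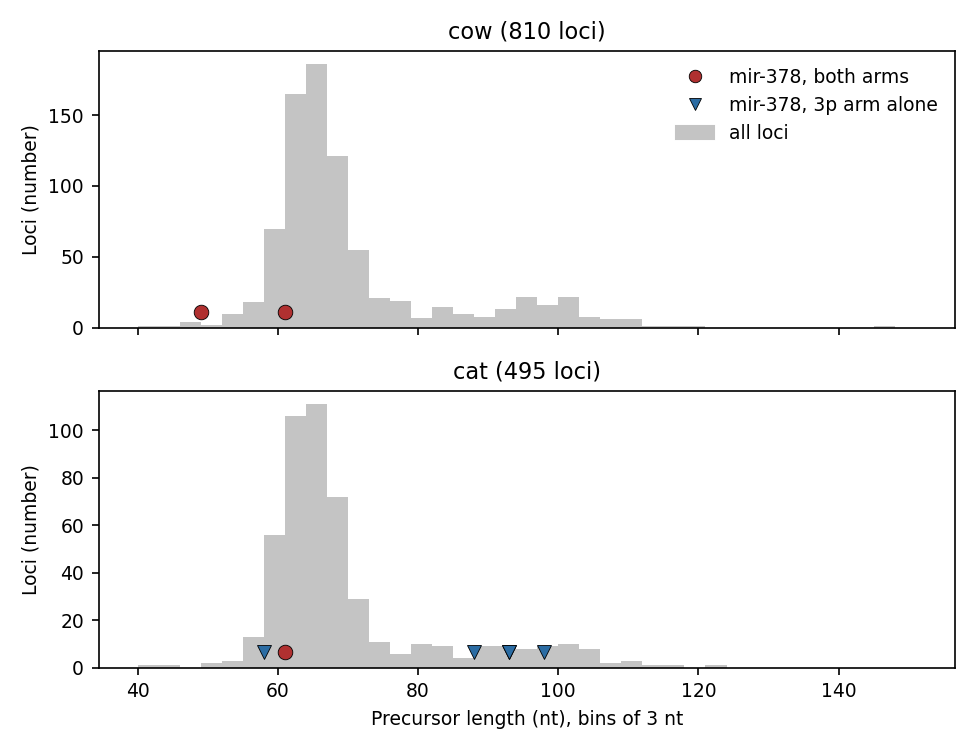
Precursor length in bins of 3 nt (horizontal axis) against number of loci (vertical axis) for the cow and the cat, with the mir-378 members marked by circles (both arms) or triangles (3p arm alone) at a fixed height. The bovine members lie at 49 and 61 nt, and of the feline ones 2 lie at 58 and 61 nt and 4 at 88 to 98 nt, with fca-mir-378-Novel2 and fca-mir-378-Novel4 under the same triangle at 93 nt.

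Products from both arms were listed for both bovine members and for 1 of 6 feline members (16.7%, 95% exact interval 0.421 to 64.1%, which covers counting error only). With products of 20 to 24 nt alone the bovine share fell from 100% to 50%, since the 3p product of the further bovine member had 17 nt. Of all loci, 72.5% in the cow and 65.7% in the cat had both arms. The other 5 feline members (83.3%, interval 35.9 to 99.6%) had the 3p arm alone, against 21.8% of all feline loci and 20% of the 90 further members of any family. The 18 further members with the 3p arm alone came from 13 families, and no family other than mir-378 had more than 2 of them. Of these 18, 4 were at least 80 nt long (4.44% of the 90), and all 4 were mir-378 loci, while the longest of another family was 77 nt. By comparison, 17.0% of all feline precursors reached 80 nt, and 27.8% of the 108 with the 3p arm alone did. The median feline precursor had 65 nt. Of all 495, 12.3% were at least as long as fca-mir-378-Novel5 and 6.46% at least as long as fca-mir-378-Novel3. The 3p arm alone and a length of at least 80 nt came together at 30 feline loci (6.06%) and 19 bovine loci (2.35%). Of the 30 feline loci, 22 had no family number, 4 were mir-378 and 4 were single loci of mir-326, mir-328, mir-410 and mir-574. Homology was called by the authors from a mature product, so the arm that carries the product is not independent of the name. Feline loci of 1 family with near-identical products can also share reads, which the deposited set does not show.

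Arms were also counted in the other families with most further members in the cat. The let-7, mir-9, mir-19, mir-29 and mir-30 families had 30 feline loci, 17 of them further members, and 14 of these 17 had both arms. The let-7 family, which regulates differentiation, had both arms at all 11 feline loci. In the mir-19 family, part of the proliferation-promoting mir-17 to mir-92 group, 2 of 4 feline loci had the 3p arm alone. A list of muscle microRNAs (the mir-206, mir-1, mir-499, mir-133, mir-486 and mir-208 families) had 11 feline loci, of which 10 had both arms, and 9 bovine loci, of which 8 had both arms. The 2 further feline members among them were mir-133 loci, 1 with both arms. Precursors as long as those of mir-378 also occurred in the comparison families. The longest feline one had 112 nt in mir-29, 104 nt in mir-19, 102 nt in mir-1 and mir-206, 100 nt in mir-133 and 97 nt in mir-208. In let-7, mir-9, mir-30, mir-486 and mir-499 none was longer than 82 nt. No locus of the 11 families, in either species, had an inner stretch of 40 nt or more between its arms, measured or taken from the single product. Of the feline mir-378 loci, 4 had one. In those 4 it was taken from the 3p product, whereas most loci of the 11 families had a measured loop, so the measures are unlike. A long precursor need not have a long loop. Feline mir-206 had 102 nt and a loop of 16 nt, and feline mir-208 had 97 nt and one of 13 nt.

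The mir-378 loci lay outside clusters of predicted loci. The 6 feline members were on 5 sequences and the 2 bovine members on 2. None lay within 10 kb of another predicted locus. The exact interval was 0 to 45.9% for the 6 feline and 0 to 84.2% for the 2 bovine members. Of all loci, 33.3% in the cat and 29.0% in the cow had such a neighbour. Of the 90 further members in each species, 42.2% in the cat and 3.33% in the cow did. The shares were 9.64% and 9.09% for loci without a family, and 50.7% and 45.9% for plain family names. The feline 50.7% lies outside the feline interval, and the other feline shares lie inside it. The bovine interval is so wide that it holds every bovine share given here. Whether mir-378 differs from the other groups in clustering was not tested. The gap to the nearest locus ran from 183641 to 8532390 nt in the cat, with a median of 760498 nt. The median was 288847 nt over the 487 feline loci that had another on their sequence. The gaps of fca-mir-378 (256459 nt) and the unnumbered member (183641 nt) were below it, and those of the other feline members above it. In the cow, against a median of 315270 nt, bta-mir-378-1 was nearer to its neighbour (256493 nt) and the further member less near (827024 nt). Of the 5 feline families with at least 5 loci (let-7, mir-30, mir-181, mir-378 and mir-29), mir-378 was the family without a clustered locus. The let-7 family was on more sequences, 7, and had 9 of 11 loci in clusters. Of the comparison families, mir-9, with 3 feline loci, and mir-208 and mir-499, with 1 each, had no clustered feline locus either, while the rest had some. Among the large bovine families, 1 of 33 mir-2284 loci and 3 of 60 mir-2285 loci were in clusters.

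The neighbours of the further feline members were mostly loci without a family. For the unnumbered member the nearest was fca-mir-chrC1_18846, a locus named by position, at 183641 nt on the opposite strand, and the nearest with a family number was a further member of the mir-30 family at 2541880 nt. For fca-mir-378-Novel2 the nearest was fca-Novel14 at 925952 nt, and for fca-mir-378-Novel4 it was fca-Novel24 at 2589730 nt. The closest neighbour of fca-mir-378-Novel3 was fca-mir-206, a muscle microRNA, at 8532390 nt and on the opposite strand.

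The surroundings of fca-mir-378-Novel5 matched those of a bovine gene in order, apart from mir-454. On chromosome E1 it was followed on its upstream side by a further member of mir-142 at 595043 nt, a further member of mir-301 at 1355680 nt and fca-mir-21 at 1967332 nt. Of these, mir-142 is a microRNA of blood cells and mir-21 is widely expressed. In the RefSeq table, MIR378D lies inside MSI2, an RNA-binding protein gene, on bovine chromosome 19, and the next microRNA genes in order are MIR142, MIR454, MIR301A and MIR21. The annotated MIR378D is 91 nt long, against 88 nt for fca-mir-378-Novel5. Annotated and predicted spans are set in different ways, so these lengths are not like measures. For MIR378-1 the annotated length is 66 nt, and bta-mir-378-1 was called at 61 nt. The bovine set holds the neighbours but no mir-378 locus among them. From bta-mir-142, bta-mir-454 was at 812493 nt, bta-mir-301a at 822118 nt and bta-mir-21 at 1505699 nt. In the cat, mir-301 and mir-21 were at 760569 and 1372221 nt from mir-142, and no mir-454 locus was predicted. In both species mir-301 was on the strand of mir-142 and mir-21 on the opposite strand. On the far side of bta-mir-142, where the cat has its mir-378 locus, the nearest predicted bovine locus was bta-Novel314, at 1588361 nt.

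**Figure D4:**
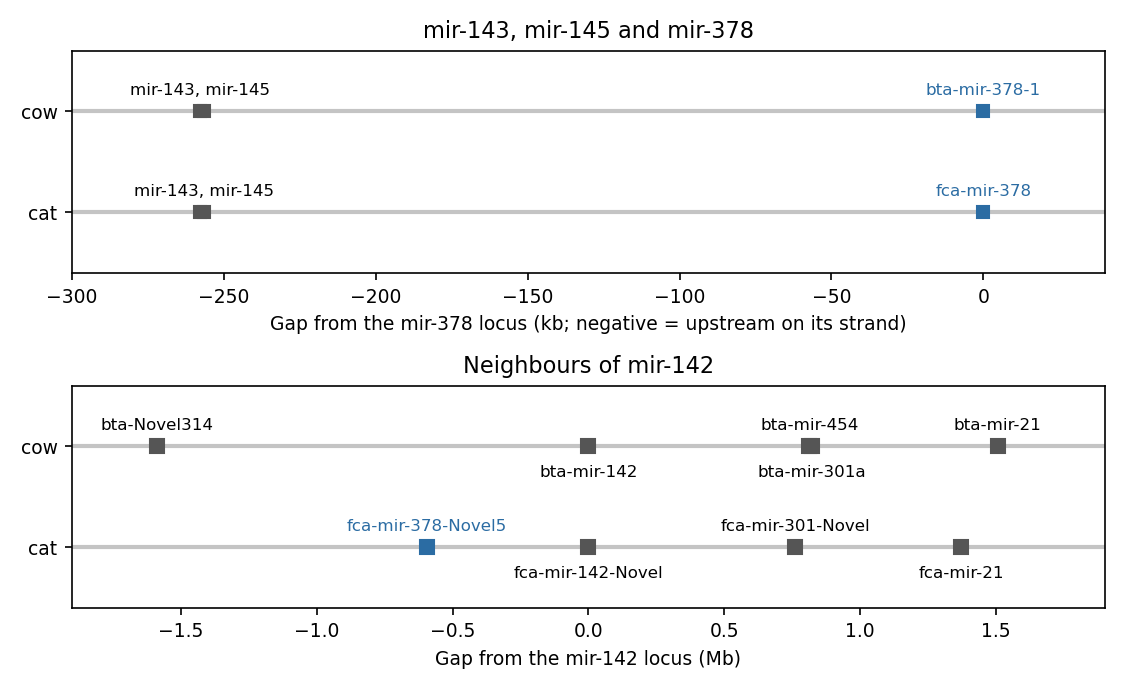
Neighbours of mir-378 in cow and cat, drawn to scale as gaps from the mir-378 locus in kb (upper panel, upstream to the left) and from the mir-142 locus in Mb (lower panel, turned so that mir-21 is on the right, with loci that have a family number and bta-Novel314 shown). The mir-143 and mir-145 loci lie about as far from mir-378 in both species. A mir-378 locus beside mir-142, at 595043 nt, was called in the cat alone. The bovine gene MIR378D, next to MIR142 in RefSeq, was not called.

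The RefSeq table holds 5 bovine mir-378 genes, with annotated lengths of 66 to 98 nt, and 4 of them lie inside a protein-coding gene. MIR378-1 is the gene whose name is in the bovine set. The other 4 names were not called: MIR378-2 inside CALCR, the calcitonin receptor gene, MIR378B outside any protein-coding gene, MIR378C inside ZNF521, a zinc finger gene, and MIR378D inside MSI2. Neighbours of all 4 by name were called, among them bta-mir-489 and bta-mir-653 for MIR378-2, bta-mir-125b-1, bta-let-7a-2 and bta-mir-100 for MIR378B, and bta-mir-1-2 and bta-mir-133a-2 for MIR378C. A gene that was not called may still be expressed. On the feline sequences that carry loci of the same names as the neighbours of MIR378B (fca-let-7a-2, fca-mir-100) and of MIR378C (fca-mir-1-2, fca-mir-133a-2), no mir-378 locus was predicted. No feline locus had the name of a neighbour of MIR378-2. Of 407 bovine loci on the same chromosome as the RefSeq gene of their name, 0 overlapped that gene's position, so the table's coordinates are not those of the deposited set and its genes served for names, lengths and order only.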

How the data were processed

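Total RNA was extracted from the tissues and sequenced as small RNA libraries. The authors trimmed reads with cutadapt (version 1.15 in the submitters' notes) and aligned them with Bowtie. Reads below a set length, and reads that matched more genomic positions than a set limit, were dropped. The latter can limit which near-identical copies are called. A read that was kept was spread evenly over the positions it matches. Loci were called with miRWoods after joining the libraries of each species. The span of a precursor was set by the authors from the best duplex of the main product within a fixed window, or from a pair of products, which limits the lengths that can be called. The deposited values are genomic starts and ends, counted from 1. No source used here names the genome builds, and sequences were not analysed here.

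Families were read from the names, loops and product positions from the coordinates, and neighbours from the gap separating 2 spans, whatever their strands, with a cluster limit of 10 kb. With 1 list per species no test between species was made. Shares carry 95% exact (Clopper-Pearson) intervals, over loci that are not replicates. The members, lists and the 80 nt limit were chosen with earlier results of these data known. Loci were named by rule: all members, their nearest loci, the 5 families with the largest excess of feline over bovine loci (ties in order of family number), and the comparison families. The mir-2285, mir-2284, mir-6526 and mir-376 families were chosen after their values were seen. So were the single loci of mir-326, mir-328, mir-410 and mir-574, bta-Novel314, and the loci and genes around mir-142 and the RefSeq genes. Python 3.11.15 with numpy 2.4.6, scipy 1.17.1 and matplotlib 3.10.9 was used, and the measures were tested on simulated lists.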

Additional observations from a re-analysis of the deposited data

How the results depend on the processing

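Of 43 alternative values, 36 stayed within the spread of the loci, their interval or 1.5 times the count, and 7 did not. Several of the 36 could not have moved, so the tally does not measure robustness. Medians that leave out 1 locus stay within the range of the loci, and 0 neighbours at 10 kb stays 0 at shorter gaps. No antisense mir-378 name exists to be counted. The bovine share with both arms fell to 50%, inside an interval that runs from 15.8 to 100% for 2 loci. With plain names alone the difference in mir-378 loci was 0, and 14 families had more loci in the cat. With families of both species alone that count was also 14, against 36. Taking an absent arm to mirror the product moved the median feline loop from 16 nt, which rests on fca-mir-378, to 47 nt. Neighbours with a family number alone moved the median nearest distance to 4483232 nt in the cow and 5537135 nt in the cat, and the same strand alone moved the bovine one to 3534997 nt. Leaving out each locus in turn gave median precursors of 88 to 93 nt in the cat and 49 to 61 nt in the cow, and bovine loops of 5 to 16 nt. No member had a neighbour within 50 kb. No paired analysis was possible because each species has 1 pooled list of calls.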
